A study of Mus musculus with 62 samples.

Results

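A mouse pancreatic cancer line, KPC1199-EGFP, was profiled cell by cell, and the 12 cells with the most messenger RNA of mitotic genes were set against the 12 with the least. The cells were chosen by a score, the mean measured level of 6 genes, Cenpe, Plk1, Cdc20, Ccnb1, Aurka and Nusap1, each as log2(CPM + 1), where CPM is the usual depth-scaled count, taken over counts on mouse genes only. Of 62 cells, 50 had under 20% of their counts in the added spike-in RNAs and were ranked: 12 were mitotic-high, 12 mitotic-low and 26 lay between, while the other 12 were left out. All 62 came from 1 untreated adherent culture on a C57BL\6 strain background, with EGFP expression as its genotype label, taken at passage 9; they were trypsinised, captured and amplified on the Fluidigm C1 chip and made into libraries with the Nextera XT kit. Both groups share all of these features, no label marks the cell cycle of any cell, and the groups exist only through the score. Because every cell is from the same culture, the culture is 1 sample: no p-value is given, and all differences describe these cells.

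A cell that prepares to divide makes large amounts of many messenger RNAs in G2 phase and mitosis and removes most of their protein products at the end of division. Cyclins switch on the kinase CDK1, which with the Polo and Aurora kinases condenses the chromosomes, builds the spindle of microtubules and attaches it at the kinetochores, and the anaphase-promoting complex then marks cyclin B and securin for destruction so that sister chromatids part. Transcription of many of these genes is known to depend on the MuvB complex with B-MYB and FOXM1, which uses a short promoter element called the CHR, and on NF-Y, which binds CCAAT boxes. Expression of the set is low in G1, after division, and in cells that have stopped cycling.

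Promoters of 5 of the 6 score genes, and of 3 of the 10 genes that followed the score most closely, are printed here because these elements are a feature that many such genes are known to share; only windows with a match were printed, at most 8. Each line gives the 150 bases before the annotated start, 5′ to 3′ on the gene's own strand, from RefSeq's promoter table (GRCm38.p6), and capitals mark a CHR (TTTGAA or TTTAAA, or TTCAAA for the first on the other strand) or a CCAAT box (CCAAT, or ATTGG on the other strand).
Plk1, chr7:122159285-122159434, plus strand: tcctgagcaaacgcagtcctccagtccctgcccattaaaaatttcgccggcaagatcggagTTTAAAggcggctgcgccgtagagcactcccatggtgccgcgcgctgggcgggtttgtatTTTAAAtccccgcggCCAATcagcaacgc
Cdc20, chr4:118437344-118437493, minus strand: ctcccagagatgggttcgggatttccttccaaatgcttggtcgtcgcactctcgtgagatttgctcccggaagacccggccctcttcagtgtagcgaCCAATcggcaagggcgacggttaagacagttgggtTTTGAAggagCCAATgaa
Ccnb1, chr13:100786487-100786636, minus strand: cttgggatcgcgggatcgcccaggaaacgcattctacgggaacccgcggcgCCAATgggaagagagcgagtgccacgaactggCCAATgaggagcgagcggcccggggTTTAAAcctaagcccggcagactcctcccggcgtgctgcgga
Cenpe, chr3:135212413-135212562, plus strand: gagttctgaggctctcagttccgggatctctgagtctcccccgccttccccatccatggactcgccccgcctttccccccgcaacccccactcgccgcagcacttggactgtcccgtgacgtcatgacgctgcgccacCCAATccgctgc
Aurka, chr2:172370571-172370720, minus strand: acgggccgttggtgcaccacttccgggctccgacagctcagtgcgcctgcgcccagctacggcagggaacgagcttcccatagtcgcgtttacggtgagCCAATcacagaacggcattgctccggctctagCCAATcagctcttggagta
Ube2c, chr2:164769779-164769928, plus strand: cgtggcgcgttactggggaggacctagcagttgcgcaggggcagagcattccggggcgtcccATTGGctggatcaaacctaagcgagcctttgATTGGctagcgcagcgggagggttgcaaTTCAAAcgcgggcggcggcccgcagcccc
Depdc1a, chr3:159495283-159495432, plus strand: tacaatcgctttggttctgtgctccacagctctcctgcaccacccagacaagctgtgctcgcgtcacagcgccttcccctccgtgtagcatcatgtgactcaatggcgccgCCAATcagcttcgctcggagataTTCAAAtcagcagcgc
Cdca8, chr4:124936918-124937067, minus strand: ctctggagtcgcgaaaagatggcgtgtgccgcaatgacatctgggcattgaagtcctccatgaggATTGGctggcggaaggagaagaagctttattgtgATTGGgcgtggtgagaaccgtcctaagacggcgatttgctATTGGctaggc
Both elements stood in this window of Plk1, Cdc20 and Ccnb1 among the score genes, and of Ube2c, Depdc1a and Cenpa among the 10 genes outside it. Cenpe and Aurka held CCAAT boxes with no CHR of these letters, as did Cdca8 and C330027C09Rik. The windows of Nusap1, Birc5 and Kif20b held no match to either, and the other 3 of the 10 genes, Tpx2, Shcbp1 and Ccna2, were not matched to the table. Over the genes of 6 lists of G2 and mitosis genes, 136 of 165 had a promoter in the table, of which 33.8% held a CHR, 58.1% a CCAAT box and 25% both. Among 9571 genes outside the score that passed the filter on low values and had a promoter there, the shares were 11.6%, 32.7% and 3.57%. Over all 27025 genes with a tabulated promoter they were 16.8%, 27.7% and 4.24%. A gene with several starts was counted when any of its windows matched. A match describes letters in a window and is not evidence of a bound site.

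The score spanned 8.32 to 9.71 in the mitotic-high cells, with a median of 8.67, and 0.64 to 4.74 in the mitotic-low cells, with a median of 2.96. At the upper limit, the last mitotic-high cell had 8.32 and the next cell 8.30, so that edge separates neighbours that barely differ; at the lower limit, the first mitotic-low cell had 4.74 and the cell above it 5.07. The score therefore runs as a range and not as separate classes. Cyclin B1, the product of Ccnb1 and the activator of CDK1 in mitosis, had levels of 9.33, 10.30 and 11.39 in mitotic-high cells (lowest, median and highest, log2(CPM + 1)), against 0, 6.08 and 8.44 in mitotic-low cells. Plk1, the Polo-like kinase, had 6.26, 7.44 and 9.02 in mitotic-high cells, against 0, 0 and 6.95 in mitotic-low cells. Plk1 was the only score gene whose groups overlapped, and 4 of 12 mitotic-low cells had a count of it. Aurka, the kinase of the spindle poles, had 8.54, 8.95 and 9.78 in mitotic-high cells, against 0, 0 and 6.34 in mitotic-low cells. Cenpe, a kinetochore motor, had 7.51, 9.01 and 9.79 in mitotic-high cells, against 0, 1.24 and 7.33 in mitotic-low cells. Cdc20, the coactivator of the anaphase-promoting complex, had 7.43, 8.22 and 9.62 in mitotic-high cells, against 0, 3.23 and 6.90 in mitotic-low cells. Nusap1, a spindle microtubule binder, had 8.58, 8.94 and 9.62 in mitotic-high cells, against 0, 0.99 and 7.61 in mitotic-low cells. These 6 genes chose the cells, so their separation is the rule and not a result.

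**Figure D1:**
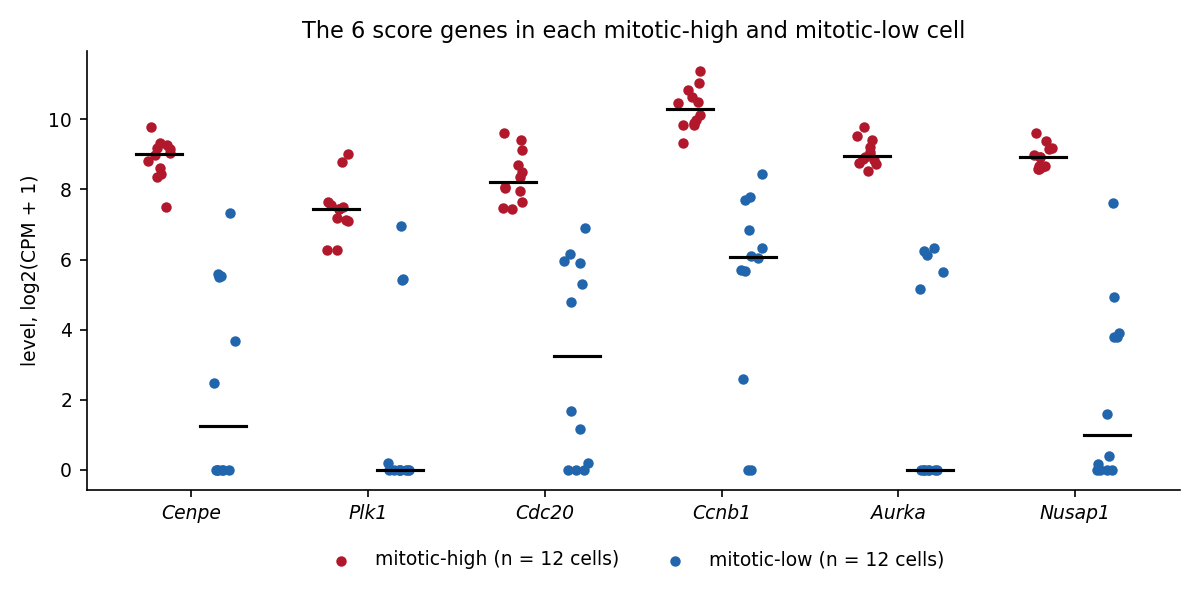
Level of the 6 score genes, as log2(CPM + 1), in each of the 12 mitotic-high and 12 mitotic-low cells, with bars at the group medians. The high cells of Ccnb1 lie between 9.33 and 11.39 and its low cells between 0 and 8.44; only Plk1 shows any overlap of the groups.

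The libraries of the groups differed in size and in content. Counts assigned to genes were 2536570 to 10757700 in mitotic-high cells (median 6491730), against 5647720 to 12065500 in mitotic-low cells (median 8017320), yet mitotic-high cells had 8365 to 11068 genes with a count (median 9950.5), against 6935 to 10308 in mitotic-low cells (median 8383). Spike-in RNAs took 0.190% to 0.800% of all counts in mitotic-high cells, against 0.390% to 1.60% in mitotic-low cells. Gene counts per spike-in count, a measure of how much cellular RNA each chamber held, averaged 8.12 ± 0.70 on the log2 scale in mitotic-high cells and 6.75 ± 0.62 in mitotic-low cells (SD, n = 12 cells each), a ratio of 2.58 between the geometric means. Over the 50 ranked cells, Pearson's r of the score was 0.52 with the number of detected genes and 0.56 with the log2 ratio of gene to spike-in counts; both values of a pair come from 1 library, and without the 2 cells farthest from the median score r was 0.42 and 0.48. CPM removes a difference in total RNA, but not one in how many transcripts are caught at all. The median difference of 12006 genes outside the score with a count in at least 10 of the 50 cells was 0.33 rather than 0, with quartiles of -0.09 and 0.98. The part of RNA content and detection in the gene differences was not tested beyond the adjusted values given with them.

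**Figure D2:**
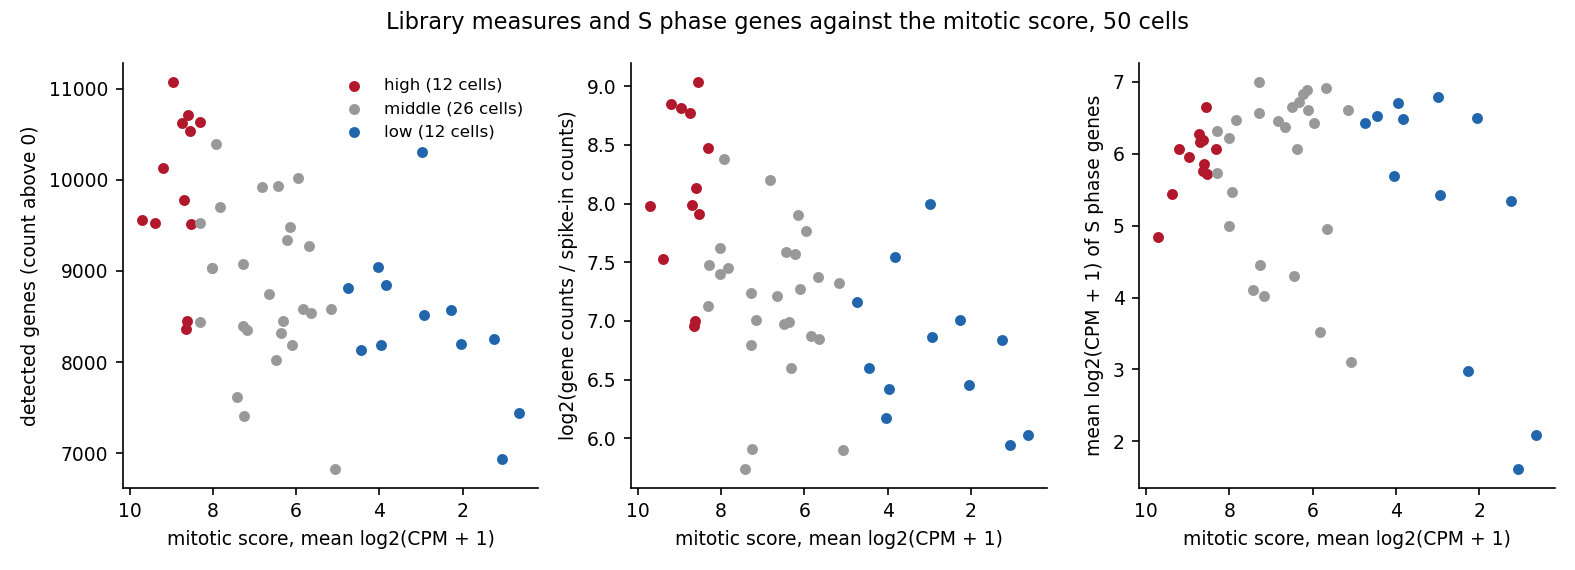
Detected genes, log2 gene counts per spike-in count and the mean level of the S phase genes against the mitotic score, 1 point per ranked cell, with the score falling from left to right. Mitotic-high cells hold 8365 to 11068 detected genes and mitotic-low cells 6935 to 10308; 3 low cells have an S phase mean of 2.98 or less.

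A gene was counted as higher or lower here when its mean log2(CPM + 1) differed by at least 1 between the groups, and as separated when, in addition, the cell of the group with the higher mean was above in at least 85% of the pairs made of 1 mitotic-high and 1 mitotic-low cell, a tie adding 0.5. Among the 12006 genes, 2947 were higher in mitotic-high cells (24.5%), and 250 were lower (2.08%). Of the higher genes, 190 were separated (1.58% of all genes), and in 24 (0.2%) every mitotic-high cell was above every mitotic-low cell. Among genes lower in mitotic-high cells 1 was separated (0.00833%), and for 0 did every mitotic-high cell lie below every mitotic-low cell. The excess of higher over lower genes depended on detection. With the number of detected genes as a term in a linear fit, 1986 genes were higher and 1521 lower. When cells were split on the score left after a line on detected genes, 1410 were higher and 1089 lower. The 6 G2 and mitosis lists, without the score genes, named 166 genes, all with a row in the table; 165 passed the filter, and Kifc1 had a count in 6 of the 50 cells. Of the 165, 139 were higher, 0 were lower and 87 were separated, with a median difference of 2.61 against 0.33 for all genes. Measured against that median of all genes, 133 were higher by at least 1, where 1924 genes of all (16%) were, and 1, E2f7, was lower by at least 1, where 599 of all (4.99%) were. These lists held 87 of the 190 separated genes and 20 of the 24 without overlap. In 188 of the 190, the mean of the 26 middle cells lay between those of the outer groups. These genes were picked by the difference of the outer groups, which favours such a position, and the share over all genes was not computed. Over the 50 cells 34 genes had an r of at least 0.7 with the score, while 0 had an r of -0.7 or below.

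**Figure D3:**
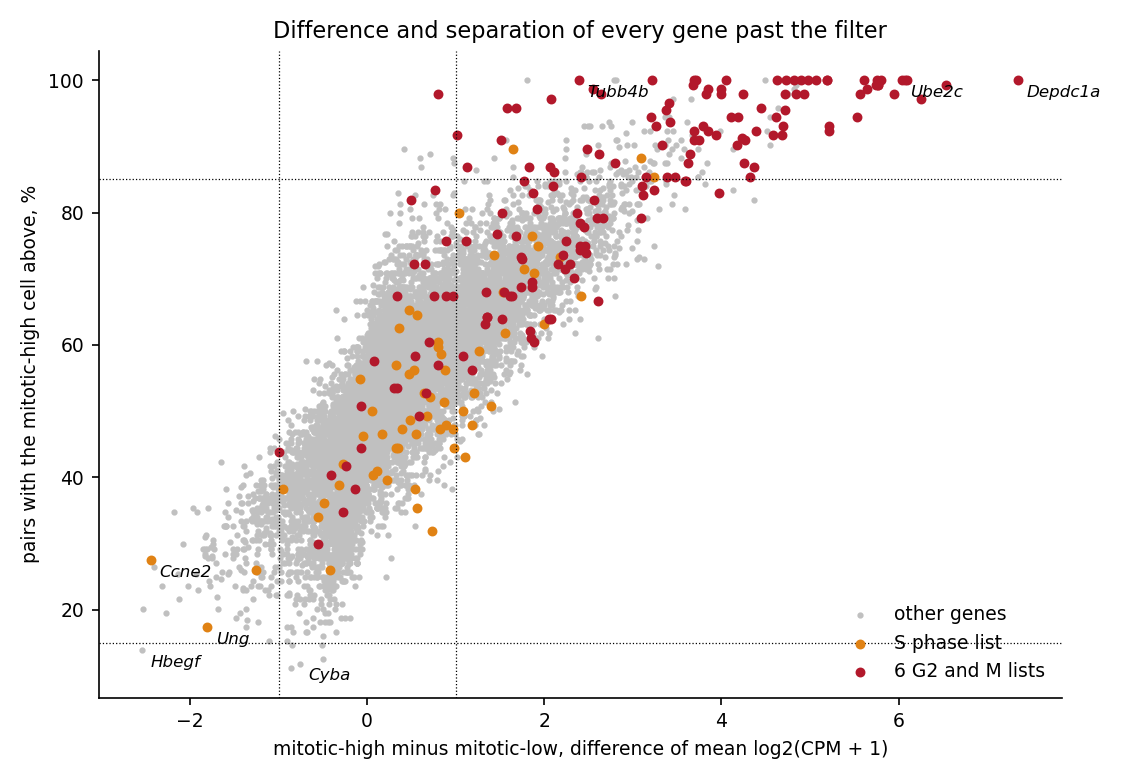
Each point is a gene outside the score: x, mean log2(CPM + 1) in mitotic-high minus mitotic-low cells; y, percentage of pairs of 1 high and 1 low cell in which the high cell was above. Dotted lines mark differences of -1 and 1 and pair shares of 15% and 85%; the upper right region holds 190 genes, 87 of them from the G2 and mitosis lists, with Depdc1a at 7.35 and Ube2c at 6.04, and Hbegf at -2.54 is the only gene in the lower left region.

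All 22 listed genes of mitotic kinases, phosphatases and cyclins were higher and 15 were separated, with a median difference of 3.72 and a range of 1.13 to 6.54. Aurkb, the Aurora kinase of the chromosomal passenger complex, had 7.15, 8.43 and 9.32 in mitotic-high cells, against 0, 0 and 7.61 in mitotic-low cells. Its difference was 6.54, and 4 mitotic-low cells had a count. Ccna2, which encodes the cyclin of S phase and G2, had 9.22, 9.41 and 10.38 in mitotic-high cells, against 0, 6.25 and 8.70 in mitotic-low cells. Cdk1, the kinase itself, had 7.99, 9.02 and 9.83 in mitotic-high cells, against 0, 7.32 and 9.25 in mitotic-low cells, so its groups overlapped and its difference of 3.26 was smaller than that of Aurkb. Mastl, the Greatwall kinase that keeps the phosphatase PP2A off during mitosis, had 2.76, 6.04 and 7.28 in mitotic-high cells, against 0, 0 and 0.24 in mitotic-low cells. The checkpoint kinase genes Bub1b and Bub1 differed by 4.71 and 3.69, Ccnf by 5.95 and Melk by 5.65. Ccnb2, the gene of the second B-type cyclin, had 5.28, 8.67 and 9.41 in mitotic-high cells, against 0, 8.29 and 9.20 in mitotic-low cells. Its mitotic-high cell was above in 71.5% of pairs, and Ccnb1, as a score gene, is no measure for it. The inhibitory kinases of CDK1, Wee1 and Pkmyt1, differed by 2.16 and 1.35, below the list's median.

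For the anaphase-promoting complex, the subunit genes as a set differed less than those of the enzymes and substrates around it. Of 13 subunit genes, 2 were higher (Cdc27 by 2.40 and Cdc23 by 1.73) and 0 were separated, with a median difference of -0.07. These counts are not far from the shares over all genes, of which 24.5% were higher and 1.58% separated. All 9 genes of its other coactivator, its E2 enzymes, its substrates, inhibitors and checkpoint partners were higher and 6 were separated, with a median of 2.11. This division of the 22 listed genes was made after their values were seen. Ube2c, the E2 enzyme that starts ubiquitin chains for the complex, had 9.77, 10.56 and 11.26 in mitotic-high cells, against 0, 5.33 and 7.79 in mitotic-low cells, with no overlap and a difference of 6.04. It also had the highest r with the score of any gene outside it, 0.88 over the 50 cells. Espl1, the gene of separase, which cuts cohesin, differed by 3.38, with a count in 11 mitotic-high cells and 1 mitotic-low cell. Pttg1, the gene of its inhibitor securin, had 7.5, 8.55 and 9.22 in mitotic-high cells, against 0.83, 7.33 and 8.42 in mitotic-low cells. Mad2l1, which encodes the checkpoint inhibitor of Cdc20, differed by 2.48. Among the subunits, Anapc13 had 4.14, 5.30 and 6.56 in mitotic-high cells, against 5.03, 6.04 and 6.96 in mitotic-low cells, a difference of -0.56.

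Spindle motors and microtubule proteins had the highest list median, 4.18: of 39 genes past the filter 38 were higher, 30 were separated and 10 showed no overlap. Depdc1a, whose human homologue is known as a mitotic protein, had the largest difference of any gene, 7.35: its levels were 7.16, 7.79 and 8.76 in mitotic-high cells, against 0, 0 and 5.46 in mitotic-low cells. All 12 mitotic-high cells had a count of Depdc1a and 1 of 12 mitotic-low cells did. The score chose these cells, so no interval is given for such a share. Aspm, a protein of the spindle poles, had 2.14, 6.27 and 7.98 in mitotic-high cells and was at 0 in all 12 mitotic-low cells. A count of 0 does not show that the message was absent from a cell. Tpx2, which activates Aurora A on the spindle, had 7.68, 8.28 and 9.14 in mitotic-high cells, against 0, 4.51 and 6.38 in mitotic-low cells. Kif11, the motor that pushes the poles apart, differed by 5.77, and Kif20a and Prc1, which act at the midzone where cells cleave, by 5.74 and 4.90. Tubulin itself differed less, in genes that every cell expressed. Tubb4b had 9.44, 9.90 and 10.82 in mitotic-high cells, against 6.08, 7.59 and 9.03 in mitotic-low cells, again with no overlap. Its difference was 2.39, those of Tuba1c, Tubb5, Tuba1a and Tuba1b were 2.08, 1.77, 1.61 and 1.51, and that of the tubulin-binding Stmn1 was 0.66. Tubulin genes are near copies, and pseudoalignment divides shared reads among them by estimate, so the split between these genes is uncertain.

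Among kinetochore and centromere genes, 30 of 33 were higher and 16 were separated, with a median difference of 2.80. Cenpa, the histone that marks the centromere, had 7.80, 8.95 and 9.52 in mitotic-high cells, against 0, 4.79 and 7.64 in mitotic-low cells. Cdca8 and Birc5, partners of Aurora B in the passenger complex, differed by 5.07 and 3.21, while Incenp, the third partner, differed by 2.47 and was above in 74% of pairs. The outer kinetochore genes Knl1, listed in the table under its older name Casc5, and Ndc80 differed by 5.80 and 5.22. Cenpf had 7.51, 8.64 and 9.60 in mitotic-high cells, against 1.42, 5.08 and 7.35 in mitotic-low cells, with a count in every cell of both groups. The 3 genes under the limit of 1 were Hjurp, Spc24 and Zwint, at 0.97, 0.80 and 0.49. Zwint nevertheless was above in 81.9% of pairs.

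Chromosome condensation and mitotic chromatin gave the second lowest median of the 6 lists, 1.79, with 20 of 26 higher and 13 separated. Top2a, the topoisomerase that untangles sister chromatids, had 7.87, 8.79 and 9.89 in mitotic-high cells, against 0, 5.28 and 8.36 in mitotic-low cells. Mki67, the proliferation marker that coats mitotic chromosomes, differed by 3.83, and the condensin I genes Ncapg, Ncapd2 and Ncaph by 4.62, 3.65 and 2.62. Smc4 and Smc2, whose products belong to both condensins, differed by 2.64 and 2.06. Genes particular to condensin II differed by less, with Ncapd3 at 1.84, Ncapg2 at 1.08 and Ncaph2 at 0.76. Hmgb2 had 9.63, 10.39 and 10.94 in mitotic-high cells, against 6.79, 8.85 and 10.08 in mitotic-low cells. The histone variant gene H2afz and the heterochromatin gene Cbx5 differed by 0.34 and 0.33, close to the median of all genes; Hmgb genes have many near copies, and their counts are uncertain for that reason.

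The list of G2 factors and other G2 and mitosis genes had 18 of 23 higher and 7 separated, with a median of 2.45. Foxm1, the transcription factor of the programme, had 4.58, 5.24 and 6.89 in mitotic-high cells, against 0, 1.10 and 6.50 in mitotic-low cells, a difference of 3.11 with 82.6% of pairs above, short of the limit for separation. Mybl2, the gene of B-MYB, differed by 2.61 with 66.7% of pairs above. Of the MuvB subunit genes listed, Lin9 differed by 3.59, Lin54 by 2.45, Lin52 by 1.63 and Lin37 by 0.08. The repressor gene E2f7 was the lowest of all 165, at -1.0, with a count in 6 mitotic-high and 5 mitotic-low cells, and E2f8 differed by 1.55. Shcbp1, known at the midbody, had 7.73, 8.48 and 8.97 in mitotic-high cells, against 0, 0 and 8.41 in mitotic-low cells. Arl6ip1, a protein that shapes the endoplasmic reticulum, differed by 3.21 with no overlap and a count in every cell.

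The differences of the G2 and mitosis lists were not of 1 size in all cells. With the 7 mitotic-high and 6 mitotic-low cells whose labels carry numbers 1 to 48, the median over the lists was 3.85, and with the 5 and 6 cells numbered 49 to 96 it was 1.71; the labels give these numbers no meaning. With the number of detected genes as a term in a linear fit over the 24 cells the median was 2.00, against -0.01 for all genes. The split was also remade on what remained of the score once the number of detected genes was taken out by a line. The groups then differed by 46.25 detected genes in place of 1470, and the median difference of all genes was 0.01. In that split the lists had a median of 2.03, and 71 genes were higher and separated, 67 of them among the 190; 53 were in the lists.

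Genes outside every list were described after their values had been seen. Of the 190 separated genes, 99 were in none of the lists, and several of these have known roles in division. Most genes named here were picked for such roles, while others, such as Ccdc18 at 4.82 and Efcab11 at 4.64, were passed over. In the split on the score residual, where detected genes hardly differed, 71 genes were higher and separated. Of these 71, 67 were among the 190 and 53 were in the G2 and mitosis lists. Most of the 190 were therefore not separated in that split, and which of the genes named here were is not given. Cip2a, listed under its older name C330027C09Rik, had 5.75, 6.95 and 8.03 in mitotic-high cells, against 0, 0.61 and 5.97 in mitotic-low cells. Its r with the score was 0.79, and the human protein is known as an inhibitor of PP2A. Reep4, which clears endoplasmic reticulum from mitotic chromosomes, differed by 4.75, Neil3, a DNA glycosylase, by 4.51, and Bora, the activator of Aurora A and Plk1, by 3.24. Kpna2, an importin subunit, had 6.01, 10.45 and 11.32 in mitotic-high cells, against 0, 7.54 and 8.62 in mitotic-low cells. Further members were the cohesin acetyltransferase gene Esco2 at 3.78, the formin gene Diaph3 at 3.45, the centrosome gene Odf2 at 3.45, the checkpoint gene Kntc1 at 3.41 and the augmin gene Haus5 at 3.36. Dbf4, which activates the CDC7 kinase at replication origins, differed by 3.20. The 4 genes without overlap that no G2 or mitosis list held were Med24, Trim59, Mxd3 and Fam166a, with differences of 4.50, 2.81, 2.79 and 1.81. Mxd3, a partner of MAX in the MYC network, had 4.68, 5.72 and 7.18 in mitotic-high cells, against 2.38, 2.96 and 3.84 in mitotic-low cells. Promoters were in the table for 84 of the 103 separated genes outside the G2 and mitosis lists, and 25% of them held a CHR, 45.2% a CCAAT box and 11.9% both. Among the 9571 genes past the filter with a promoter there, the shares were 11.6%, 32.7% and 3.57%.

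The 10 genes that followed the score most closely over the 50 cells were Ube2c, Depdc1a, Tpx2, Cdca8, Shcbp1, Ccna2, Birc5, Cenpa, C330027C09Rik and Kif20b, with Pearson's r between 0.88 and 0.79. Each r compares levels within the same libraries, which also share their depth. The lowest r values were much smaller in size, at -0.51 for St8sia1, -0.50 for Hoxb9 and Cyba and -0.49 for Zfp862.ps and Tmsb10.

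**Figure D4:**
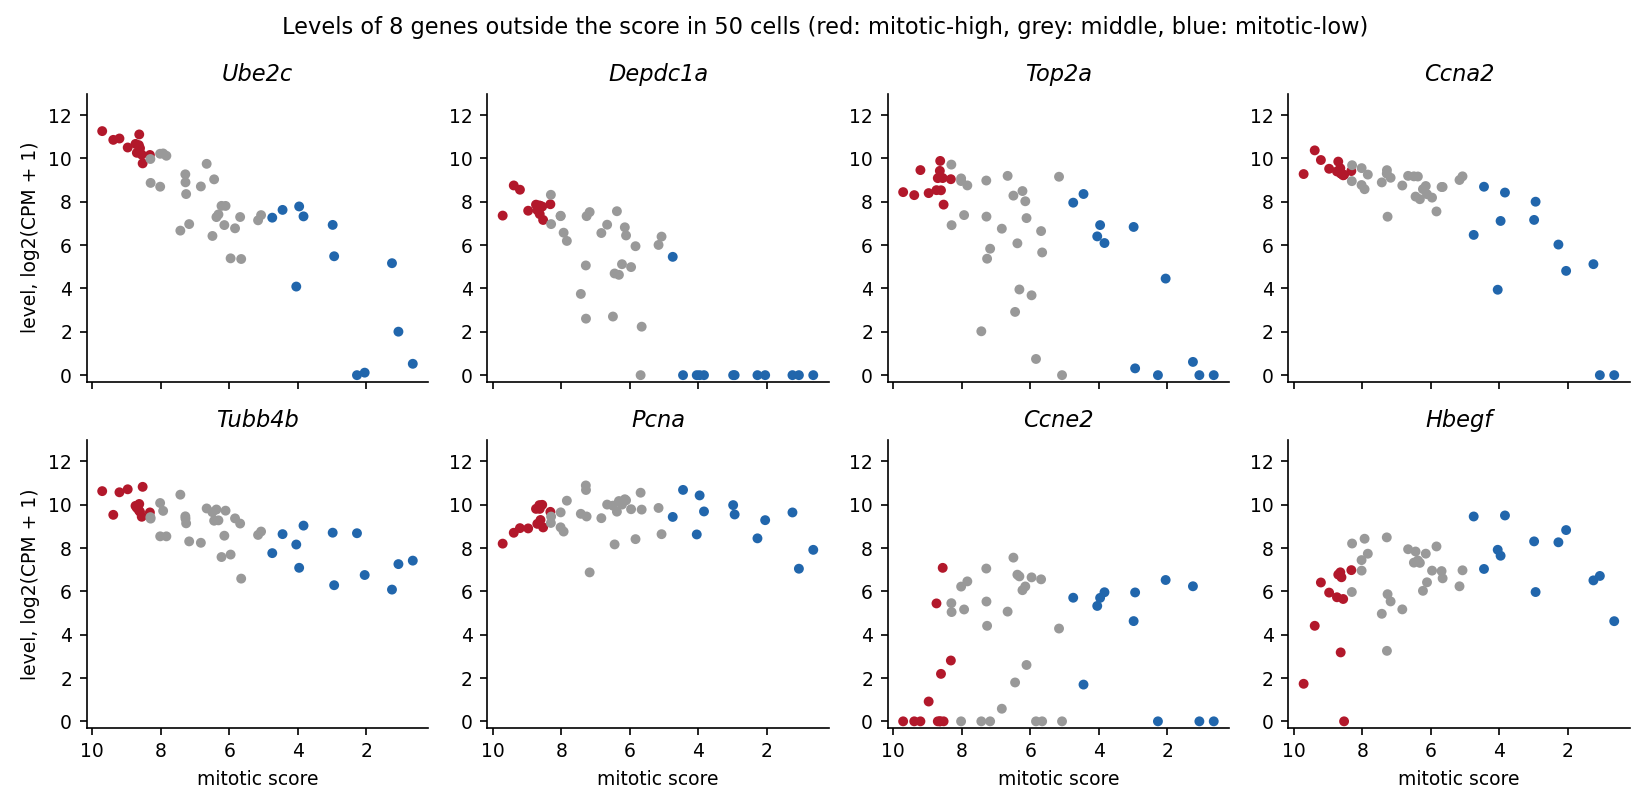
Level of 8 genes outside the score, as log2(CPM + 1), in the 50 ranked cells against the mitotic score, which falls from left to right; red, mitotic-high, grey, middle, and blue, mitotic-low cells. Ube2c and Depdc1a decline across the middle cells and Depdc1a is at 0 in 11 of 12 low cells, while Pcna stays between 8.20 and 9.99 in high cells and between 7.04 and 10.68 in low cells.

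Genes of DNA replication, which work in S phase before mitosis, did not follow the mitotic genes. Of 62 listed, all past the filter, 20 were higher, 3 were lower and 3 were separated, Tk1 at 1.64, Rfc5 at 3.09 and Rad51ap1 at 3.23; 24.5% of all genes were higher and 1.58% separated. The list's median difference was 0.70, and its sign was not stable: it was -0.12 on medians over cells, -0.32 with detected genes as a term, and 1.60 and -0.27 in cells numbered 1 to 48 and 49 to 96. In 31 of the 62 genes the mitotic-high cell was above in over 50% of pairs, and in 29 in under 50%. The mean level of the list was 4.84 to 6.65 in mitotic-high cells (median 6.01), against 1.62 to 6.78 in mitotic-low cells (median 6.05). That range in the mitotic-low group came from 3 cells, libraries 17, 19 and 11, at 1.62, 2.09 and 2.98, while the other 9 lay between 5.34 and 6.78. The labels of these libraries carry the numbers 25, 27 and 15, so all 3 were among the 6 mitotic-low cells numbered 1 to 48. Their part in the gap between the 2 sets of label numbers was not tested. Libraries 17, 19 and 11 had 6935, 7436 and 8568 detected genes, against a median of 8383 in mitotic-low cells. Spike-in RNAs took 1.60%, 1.51% and 0.77% of their counts, against a median of 0.94% in that group. The part of detection in their low S phase means was not tested. Without those 3 cells, an alternative chosen after the values were seen, the list's median was -0.33 and that of the G2 and mitosis lists 2.19. Over the 50 cells, Pearson's r between the score and the mean of the S phase list was 0.33, Spearman's rho was -0.02, and r was 0.06 without the 2 cells farthest from the median score. Cells with few mitotic messages included both cells with high and cells with low measured levels of replication genes.

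Single replication genes went both ways. Pcna, the sliding clamp, had 8.20, 9.20 and 9.99 in mitotic-high cells, against 7.04, 9.49 and 10.68 in mitotic-low cells, a difference of 0.05. Ccne2, the gene of cyclin E2, which acts at the entry to S phase, had 0, 0 and 7.08 in mitotic-high cells, against 0, 5.51 and 6.52 in mitotic-low cells. Ccne2 had a count in 5 mitotic-high and 9 mitotic-low cells, and its difference was -2.44. Ung, a uracil-DNA glycosylase, differed by -1.80 and Dtl, which directs the destruction of the licensing factor Cdt1, by -1.25, with the mitotic-high cell above in 17.4% and 26% of pairs. None of these 3 was separated by the limit used here. Mcm5, a subunit of the replicative helicase, had 4.30, 6.69 and 7.25 in mitotic-high cells, against 0.15, 7.14 and 8.73 in mitotic-low cells. Its mean difference was 0.54, while its mitotic-high cell was above in 38.2% of pairs.

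Of 23 genes of G1 cyclins and CDK inhibitors, 8 were higher, 1 was lower and 1 was separated, where 24.5% of all genes were higher and 2.08% lower; the median was 0.59 against 0.33 for all genes. Relative to that median, 7 were higher by at least 1 and 2 were lower, where 16% and 4.99% of all genes were. The separated one was Cdkn2d, which encodes the inhibitor p19 of CDK4 and CDK6: it had 4.89, 6.19 and 7.83 in mitotic-high cells, against 0, 2.52 and 5.73 in mitotic-low cells, a difference of 3.67. The lower one was Cdkn2a, at -1.12, with a count in 11 mitotic-high and 12 mitotic-low cells. Ccnd1, the cyclin D1 gene, had 5.55, 7.37 and 9.24 in mitotic-high cells, against 5.0, 7.66 and 8.72 in mitotic-low cells. Cdkn1a, the p21 gene that p53 induces, differed by -0.71 and was seen in 7 mitotic-high and 6 mitotic-low cells. The 22 measured p53 target genes had 4 higher, 2 lower and 0 separated, with a median of 0.02 against 0.33 for all genes. Relative to that median, 0 were higher by at least 1 and 6 were lower.

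**Figure D5:**
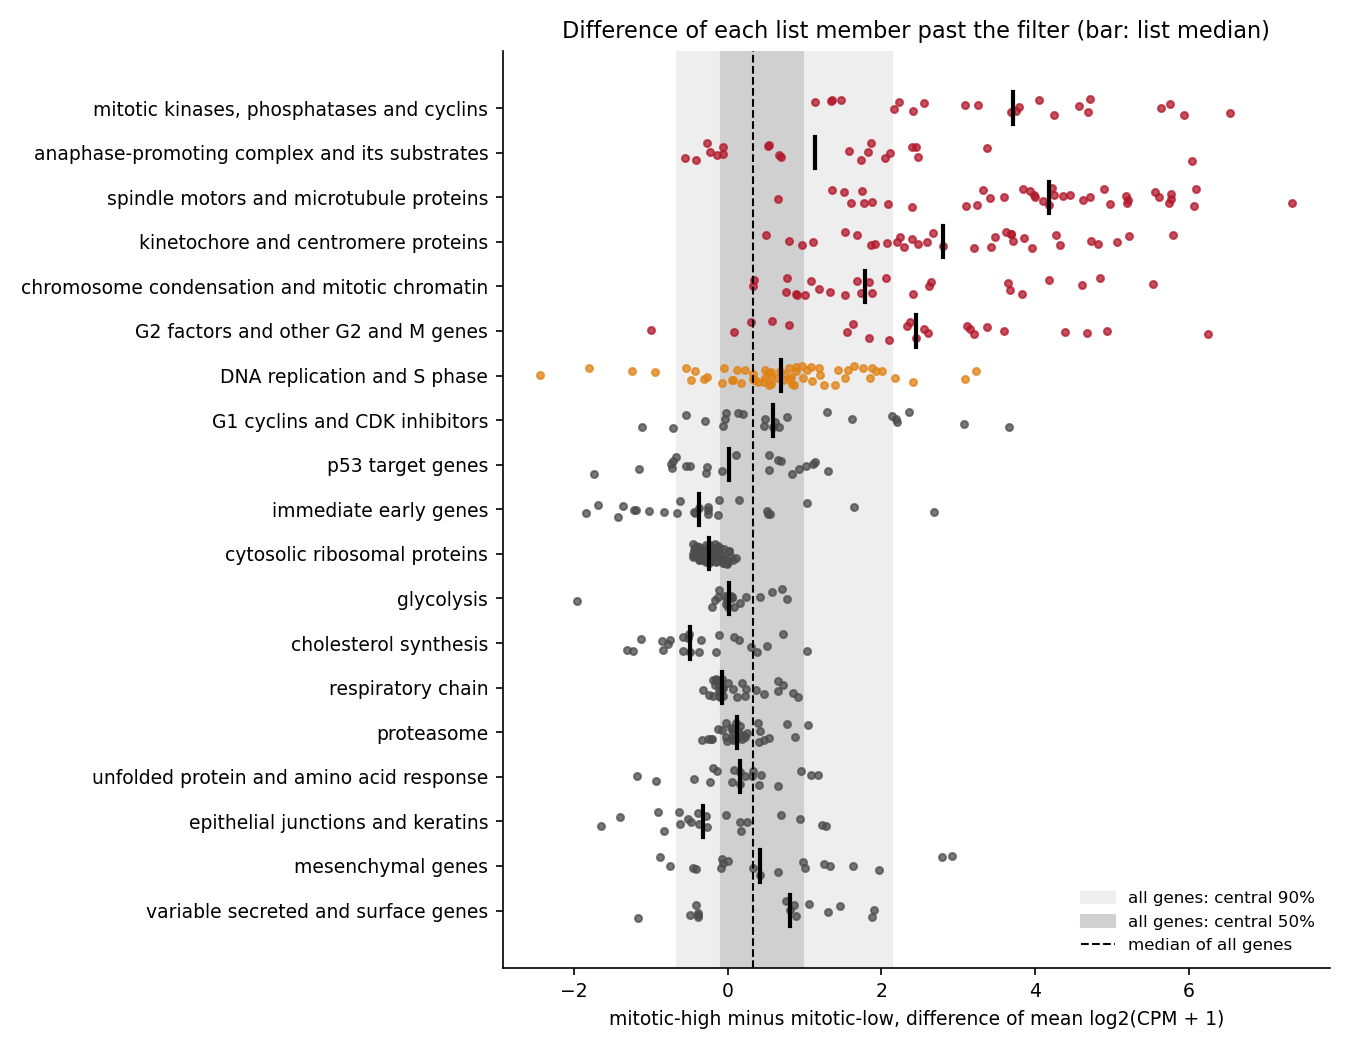
Difference of mean log2(CPM + 1), mitotic-high minus mitotic-low, for every list member past the filter, with a bar at each list's median and bands for the central 50% and 90% of all genes. The 6 G2 and mitosis lists have medians from 1.14 to 4.18, all above the dashed median of all genes at 0.33, and the ribosomal protein list lies at -0.24.

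Lists of growth and stress genes were read against the same shares of all genes, 24.5% higher and 2.08% lower, and against their median of 0.33. Relative to that median, 16% of all genes were higher by at least 1 and 4.99% were lower by at least 1. None of 64 cytosolic ribosomal protein genes passed 1 in either direction; their differences ran from -0.46 to 0.11, with a median of -0.24, which became 1.13 when counts were scaled to the spike-in RNAs, against 1.36 for all genes. Of the 64, 5 had a difference above 0, where 8249 of 12006 genes had, and the median share of pairs with the mitotic-high cell above was 32.3% over the list and 54.9% over all genes. The respiratory chain genes had 0 higher and 0 lower of 30, and the proteasome genes 1 higher and 0 lower of 31. Cholesterol synthesis genes had a median of -0.49, with 1 higher and 3 lower of 23, and relative to the median of all genes 0 were higher by at least 1 and 7 lower. The 3 lower genes were Insig1 at -1.31, Acat2 at -1.23 and Cyp51 at -1.13, each inside 1 when some single cell was left out. The list's median was 0.12 in cells numbered 1 to 48, -0.59 in those numbered 49 to 96 and 0.85 per spike-in count. Of 25 immediate early genes, which respond within minutes to growth signals and to handling, 7 were lower, 3 were higher and 0 were separated; relative to the median of all genes, 8 were lower by at least 1 and 2 higher. Their median of -0.37 became 0.70 per spike-in count. Cyr61 had 0.33, 6.67 and 10.04 in mitotic-high cells, against 0.15, 9.28 and 11.10 in mitotic-low cells, a spread within each group far wider than the difference of -1.85.

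Hbegf, a growth factor of the EGF family, was the only gene lower and separated. It had 0, 5.83 and 6.98 in mitotic-high cells, against 4.62, 7.78 and 9.50 in mitotic-low cells, a difference of -2.54, and its mitotic-high cell was above in 13.9% of pairs. Leaving out 1 cell at a time changed the number of genes lower and separated to between 0 and 5. Some other settings moved this number further, to 164 with detected genes as a term and 29 with groups of 8. In cells numbered 1 to 48 and 49 to 96 it was 60 and 150. Without the 3 mitotic-low cells low in S phase genes it was 24, and on the residual split 11. Groups of 16 kept it at 1, and per spike-in count it was 0. Cyba, the p22phox subunit of NADPH oxidases, missed the limit on size with a difference of -0.76 but was above in only 11.8% of pairs: its levels were 6.03, 7.67 and 8.32 in mitotic-high cells, against 7.80, 8.25 and 8.89 in mitotic-low cells.

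Genes of epithelial junctions and keratins had 2 higher and 2 lower of 20, and mesenchymal genes 7 higher and 0 lower of 19, where 24.5% and 2.08% of all genes were, with 0 separated in both. The mesenchymal median of 0.42 lay close to the 0.33 of all genes. Relative to the latter, 5 mesenchymal genes were higher by at least 1 and 2 lower, where 16% and 4.99% of all genes were. Mesenchymal differences ran from -0.88 for Itga5 to 2.92 for Mmp14, and Vim, the vimentin gene, had a mean of 9.21 in mitotic-high cells and 9.29 in mitotic-low cells. Markers of other cell types that a tumour culture might hold were partly detected. Of 11 immune, 10 fibroblast, 9 endothelial and 5 acinar and islet markers in the table, 7, 7, 6 and 2 had no count in any of the 24 cells, Ptprc, Pecam1 and Pdgfrb among them. The summed immune markers were 41.2 to 485 CPM in mitotic-high cells and 17.2 to 384 CPM in mitotic-low cells, with Cd14 in all 24 cells, at a mean of 6.90 in mitotic-high cells and 6.65 in mitotic-low cells on the log2(CPM + 1) scale. Egfl7, listed as an endothelial marker, averaged 2.22 in mitotic-high cells and 2.20 in mitotic-low cells, with a count in 6 of 12 cells of each group. The part of these markers in the differences was not tested. Summed fibroblast markers were 0 to 75 CPM in mitotic-high cells and 0 to 1.01 CPM in mitotic-low cells, the first range reached through 1 cell. Endothelial markers summed to 0 to 74.4 CPM in mitotic-high cells and 0 to 56.8 CPM in mitotic-low cells, and acinar and islet markers to 0 to 37.5 and 0 to 41.6 CPM.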

How the data were processed

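The deposited table holds 62 single-cell libraries of 1 culture with 19177 rows, 65 of them spike-in RNAs. The values are estimated counts that the authors made with kallisto and the mm9 build, per the submitters' processing notes. The version of kallisto and its annotation were not given in the sources used here. Among values above 0, 66.2% are whole to within 1e-06, and pseudoalignment divides reads among near-identical genes and does not separate all overlapping or antisense genes.

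CPM was computed on 19112 gene rows without the spike-ins, with no UMIs to count. Genes needed a count in at least 10 of the 50 cells with under 20% spike-in counts, and the pseudocount was 1; the log2(CPM + 1) scale understates changes of low genes. Cells were not treated as replicates, no test was run, and an SD is the spread over cells of 1 culture. No 2 libraries were identical. Named genes were the score genes, the 20 with the largest difference among genes higher and separated, and the only gene lower and separated. From each of 23 lists the 3 largest differences and the 2 highest levels were named. Also named were the 10 highest and 5 lowest r with the score, and the 2 most detected markers of each other cell type. Further genes were named for their role or after their values were seen. The members and lists were chosen with earlier results of these data known, and 1 list of secreted and surface genes had been picked for its variation in this culture.

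Alternatives changed the pseudocount, filter, scaling (TMM factors from edgeR 4.0.16 on counts rounded to whole numbers, and spike-ins), thinning to 2153864 counts, group size, score, detected genes and cells. The per-gene script was tested on simulated data. Promoters came from a GRCm38.p6 table, matched by symbol; it was not used for coordinates of the deposited values. Python 3.11.15, numpy 2.4.6, pandas 2.3.3, scipy 1.17.1, matplotlib 3.10.9 and R 4.3.3 were used.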

Additional observations from a re-analysis of the deposited data

Results flagged for a closer look

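The 12 libraries left out for a high share of spike-in counts entered no comparison. Mitotic score genes were nevertheless seen in some of them: 4 had more than 3 counts over the 6 score genes, the limit that a count of 0 allows. Library 43 had counts of all 6, with a score of 7.94, which would have placed it at rank 17 among the 50 ranked cells, although 71.1% of its counts were spike-in RNAs. It had 9041 detected genes from 389192 gene counts, while the 12 had a median of 1940 detected genes.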

How the results depend on the processing

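No paired analysis was possible because the libraries are cells of 1 culture in 1 group. The alternatives numbered 25, apart from leaving out each of 24 cells in turn; 3 of them (differences relative to the median of all genes, a split on the score residual, and 3 mitotic-low cells left out) were chosen after seeing the data. Values are in the order genes higher, genes lower, higher and separated, lower and separated, the median of the G2 and mitosis lists and that of the S phase list, as far as they moved. The G2 and mitosis median was above the median of all genes in every setting tried.

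A pseudocount of 0.1 gave 4743 higher, 509 lower and a G2 and mitosis median of 3.73, and one of 10 gave 568, 38 and 1.66. Counts per spike-in count gave 7950 higher, 29 lower, 2016 and 0 separated and a G2 and mitosis median of 3.76. Groups of 8 gave 613 lower, 348 and 29 separated and 3.65; groups of 16 gave 116 higher and separated; groups of 25 gave 1164 higher, 115 lower, 32 and 0 separated, 1.66, and a difference of log2 gene counts per spike-in count of 0.68. With detected genes as a term, 1521 were lower, 296 and 164 were separated and the S phase median was -0.32. Of the 296, 104 were among the 190 of the main split, and 58 were in the G2 and mitosis lists against 87 of the 190. On medians over cells the S phase median was -0.12. Cells numbered 1 to 48 gave 534 lower, 687 and 60 separated and 3.85, and those numbered 49 to 96 gave 1127 lower, 421 and 150 separated, 1.71, and an S phase median of -0.27. Ranking all 62 libraries, where the lowest are those with high spike-in shares, gave 8785 higher, 477 lower, 3244 and 121 separated, medians of 5.73 and 4.78, 6193.83 more detected genes and 8.13 more on the log2 scale per spike-in count. With 1 score gene left out of the score, genes lower and separated numbered 3 without Cenpe or Aurka, 5 without Plk1 or Nusap1, 10 without Cdc20 and 6 without Ccnb1. Relative to the median of all genes, 1924 were higher, 599 lower and 4 lower and separated. The split on the score residual gave 1410 higher, 1089 lower, 71 and 11 separated, 46.25 detected genes and 0.23 per spike-in count. Without the 3 mitotic-low cells, 428 were lower, 24 were lower and separated and the S phase median was -0.33. The causes were not tested.

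Leaving out 1 cell gave 2721 to 3197 higher, 220 to 313 lower, 178 to 208 and 0 to 5 separated, medians of 2.44 to 2.87 and 0.37 to 0.86, and differences of 1333.54 to 1640.17 detected genes and 1.28 to 1.48 in log2 gene counts per spike-in count. Of 127 named genes, 76 differed by at least 1; of those, 16 fell inside 1 or moved by over 1.5 times without some single cell, and 19 changed sign in some setting. Dnajc3 was at -0.032 on medians, -0.065 with groups of 25 and -0.67 in cells 49 to 96. Per spike-in count Fos was at 0.061, Ier2 at 0.34, Acat2 at 0.13 and Cyp51 at 0.24. With detected genes as a term Psmd1 was at -0.093, Ocln at -0.098 and Upk1b at -1.86; on the residual split Rrm2b was at -0.31, Ocln at -0.026 and Upk1b at -1.04. Krt7 was at 0.038 in cells 1 to 48. With all 62 libraries ranked, Hbegf was at 0.90, Ccne2 1.02, Pmaip1 1.43, Tigar 1.07, Cyr61 3.58, Zfp36 2.14, Fos 1.94, Ier2 3.96, Aldoc 3.05, Insig1 2.92, Acat2 5.64, Cyp51 4.15, Chac1 1.81 and Krt7 4.55.

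The data are 1 culture, so how far these differences vary between cultures, passages or plates cannot be read from them. The groups were cut from a continuous score, and no label gives the phase of a cell. A level of 0 in a single cell does not show that the message was absent, and mitotic-low cells had fewer detected genes at a higher median depth. RNA content, detection and the score moved together, and their parts cannot be told apart.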
